A study of Mus musculus with 4 samples.

Results

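Chemokines and their receptors were examined as a family in cultures of mouse bone marrow macrophages and osteoclasts. Members were the genes whose symbol begins with Ccl, Cxcl, Ccr, Cxcr or Ackr followed by a digit, together with Pf4, Ppbp, Cx3cl1, Cx3cr1, Xcl1, Xcr1 and Ccrl2. Of 70 mouse genes that meet this rule, 61 had a named probe, among 22903 genes with a named probe in all. They were 37 ligand genes and 24 receptor genes. The genes without a named probe here were Ccl21b, Ccl21c, Ccl21d, Ccl27b, Cxcl11 and the pseudogenes Ccl16-ps, Ccl19-ps1, Ccl19-ps2 and Ccl19-ps3.

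Total RNA of each of 4 groups was measured on 1 one-colour Agilent array. The groups were LysM-St18flox osteoclasts, wild-type osteoclasts, LysM-St18flox macrophages and wild-type macrophages. Macrophages grew for 4 days from bone marrow with 25 ng/ml M-CSF, and osteoclasts were such macrophages after 3 more days with 25 ng/ml M-CSF and 50 ng/ml RANKL, so RANKL and time in culture differ together between the cell types. LysM-St18flox denotes by convention a St18 gene flanked by loxP sites in mice with Cre recombinase at the lysozyme M locus, which is active in myeloid cells, and the labels leave out strain, sex and number of mice. St18 itself, a zinc finger factor gene, had log2 signals of 1.12 in LysM-St18flox osteoclasts against 1.55 in wild-type osteoclasts, and of -1.52 in LysM-St18flox macrophages against 0.29 in wild-type macrophages, and its probe's place relative to the floxed part is unknown here, so the signal checks nothing about the deletion.

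The 4 arrays sat at separate positions of 1 slide, so position and group cannot be told apart. With 1 array per group there is no spread between cultures, and no test or p-value was computed. Signals are log2 of the processed spot signal minus the 75th percentile of the array, so 0 is the brightness of the probe at that percentile, and levels of different genes cannot be set against each other. A difference counts as changed here when it is at least 2-fold, 1 on the log2 scale, which is a criterion of size. Well above background is the scanner software's flag for a spot. Where only 1 of 2 arrays carried it, the dim array entered at its lowest signal with the flag, or at the gene's own signal if higher, and the difference is called a bound. Probes spotted 10 times give an SD of a difference of 0.045 to 0.056 within arrays, and of 0.19 to 0.24 where the log2 signal was below -3, the second range from 3 to 8 probes per array; each member probe had 1 spot. The arrays had 59.0% to 63.2% of spots well above background, and no spot was saturated.

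All 7 osteoclast markers listed were at least 2-fold higher in osteoclasts of both genotypes, and all 7 macrophage markers were well above background on every array. Among markers of other cells, the summed linear signal of 8 neutrophil genes was 9.82 in LysM-St18flox osteoclasts against 40.4 in LysM-St18flox macrophages, and 14.2 in wild-type osteoclasts against 33.1 in wild-type macrophages, with all 8 well above background on each array. Without Mmp8 the sum of the other 7 was 7.52 against 15.1 in LysM-St18flox and 9.45 against 13.0 in the wild type, a choice made after seeing the data. Of the 8 neutrophil genes 5 were at least 2-fold lower in LysM-St18flox osteoclasts, and Mmp8 alone in wild-type osteoclasts. Of 6 megakaryocyte markers, which include Pf4 and Ppbp, 3 were on no array (Itga2b, Gp1ba and Gp9). Of 6 B cell markers, 3 were on no array, while Cd79b and Pax5 were well above background on all 4 and Ms4a1 on 3. Cd79b was lower in osteoclasts, by differences of -3.29 in LysM-St18flox and -2.23 for the wild type. Of 6 T and NK cell markers, Cd3g, Cd8a and Ncr1 were on no array, Cd3d and Cd3e on all 4 and Nkg7 on 2, and none passed 2-fold between the cell types. Of 6 stroma markers Dcn alone passed 2-fold, higher in osteoclasts at 1.65 in LysM-St18flox and 1.26 for the wild type. Of 5 dendritic cell markers, Batf3 was lower (-2.94 and -1.70) and Itgax higher in LysM-St18flox alone (2.53, and 0.97 for the wild type). Of 5 endothelial markers, Kdr was lower in the wild type (-1.11), and no mast cell or basophil marker passed 2-fold. In RNA of whole cultures, fewer cells of a type and less RNA per cell cannot be told apart.

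Chemokines are small secreted proteins that guide leukocytes along concentration gradients. They are classed by the spacing of their first cysteines as CC, CXC, CX3C or XC, and act on receptors with 7 membrane passes that couple to inhibitory G proteins, while atypical receptors bind chemokines without that coupling. Monocytes, from which osteoclast precursors come, are known to leave the marrow and enter tissue through CCR2 and CX3CR1, and CCL9 acting on CCR1 is known as a chemokine of mouse osteoclasts.

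The promoters of 6 members that the results turn on are shown first, because neighbouring or nearby genes among them differed in direction in osteoclasts. Ccl9 and Ccl3 lie in the same block of CC ligand genes on chromosome 11, with other genes between them. Ccr3 and Ccr2 are direct neighbours on chromosome 9. The differences of Ccl9 were under 2-fold. Cxcl10 differed in direction between the genotypes, and Cxcl2 belongs to the ligands that attract neutrophils. Each is the 250 bases before the transcription start in RefSeq's GRCm38.p6 annotation, read 5′ to 3′ on the gene's strand, and the capitals mark every match to a searched motif. They are chr11:83578637-83578886 (minus strand) for Ccl9, chr11:83649379-83649628 (minus) for Ccl3, chr5:90903649-90903898 (plus) for Cxcl2, chr5:92348890-92349139 (minus) for Cxcl10, chr9:124021721-124021970 (plus) for Ccr3 and chr9:124101933-124102182 (plus) for Ccr2.
Ccl9: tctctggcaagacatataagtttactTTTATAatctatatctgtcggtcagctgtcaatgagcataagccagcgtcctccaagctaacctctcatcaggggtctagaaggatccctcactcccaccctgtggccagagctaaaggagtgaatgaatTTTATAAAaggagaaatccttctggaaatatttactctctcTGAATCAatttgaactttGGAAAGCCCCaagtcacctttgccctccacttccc
Ccl3: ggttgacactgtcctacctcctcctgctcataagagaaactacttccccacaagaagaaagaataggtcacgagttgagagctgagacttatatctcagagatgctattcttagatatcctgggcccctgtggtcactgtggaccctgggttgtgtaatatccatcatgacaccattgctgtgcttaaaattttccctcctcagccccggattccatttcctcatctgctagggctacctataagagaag
Cxcl2: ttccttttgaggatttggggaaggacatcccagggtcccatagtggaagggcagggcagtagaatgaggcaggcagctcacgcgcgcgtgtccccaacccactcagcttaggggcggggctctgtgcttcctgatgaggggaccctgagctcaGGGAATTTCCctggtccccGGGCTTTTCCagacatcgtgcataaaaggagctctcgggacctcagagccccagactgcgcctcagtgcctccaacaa
Cxcl10: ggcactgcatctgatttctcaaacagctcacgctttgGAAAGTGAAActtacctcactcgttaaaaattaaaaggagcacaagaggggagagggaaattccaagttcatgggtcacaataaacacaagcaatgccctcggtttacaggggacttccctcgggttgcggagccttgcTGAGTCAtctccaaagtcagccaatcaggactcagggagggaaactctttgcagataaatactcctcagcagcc
Ccr3: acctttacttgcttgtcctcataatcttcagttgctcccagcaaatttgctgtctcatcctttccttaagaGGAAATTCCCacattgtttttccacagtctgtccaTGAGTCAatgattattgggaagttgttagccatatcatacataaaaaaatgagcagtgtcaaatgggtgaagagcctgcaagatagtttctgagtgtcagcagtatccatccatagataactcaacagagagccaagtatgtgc
Ccr2: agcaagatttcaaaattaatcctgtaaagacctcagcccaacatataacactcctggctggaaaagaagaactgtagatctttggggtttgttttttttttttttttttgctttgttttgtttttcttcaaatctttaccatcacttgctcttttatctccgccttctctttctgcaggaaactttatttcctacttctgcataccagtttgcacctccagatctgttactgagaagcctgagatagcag

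The motifs were searched on both strands of the 300 bases that reach from 250 before to 50 after the start. For NF-kappaB, the family of factors that RANK signalling activates, they were a stricter motif, GGGA and TTTCC with any base between, and a looser one, GGG and TTTCC with any 2 bases between. The others were GAAA, any 2 bases and GAAA for the interferon-stimulated response element, TGANTCA for AP-1, GAGGAAGT for PU.1 and TATAAA for the TATA box. Every match of the stricter NF-kappaB motif is also a match of the looser one. In Cxcl2, both capital stretches are the looser NF-kappaB motif, and the first of them, from -97 to -88 counted from the start at 0, is also the stricter one. Ccr3 had a stricter match from -179 to -170 and an AP-1 match from -144 to -138. In Ccl9 the capitals are TATAAA on either strand, partly overlapping, AP-1 from -53 to -47 and a looser NF-kappaB match from -35 to -26. Cxcl10 had the interferon element from -213 to -204 and AP-1 from -74 to -68. No searched letters were found in the windows of Ccl3 and Ccr2.

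Windows were found for 47 of the 61 members, 15 of them measured ligands and 16 measured receptors. The looser NF-kappaB letters were in 3 of these 15 ligand genes (Cxcl1, Cxcl2 and Ccl9) and in 1 of the 16 receptor genes (Ccr3), against 1.63% of all 32851 RefSeq windows of the same length. AP-1 letters were in 5 ligand and 2 receptor genes, against 7.81% of all windows, and TATAAA was in 7 and 3, against 13.6%. The PU.1 letters were in 1 and 1, against 3.20%, and the stricter NF-kappaB letters in 2 and 1, against 0.411%. The interferon element was in 2 ligand genes, Cxcl10 and Cxcl14, and in no measured receptor gene, against 3.44%. A match describes letters and not a bound site.

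Of the 37 ligand genes, 19 were well above background on all 4 arrays, 2 on some (Ccl8 and Cxcl9) and 16 on none. The 16 were Ccl1, Ccl11, Ccl17, Ccl19, Ccl20, Ccl21a, Ccl22, Ccl26, Ccl28, Cxcl3, Cxcl5, Cxcl12, Cxcl13, Cxcl15, Cxcl17 and Xcl1. Among them are Ccl19 and Ccl21a, which guide cells within lymphoid tissue, and Ccl17 and Ccl22, which attract T cells through CCR4. Among the 24 receptor genes, 12 carried the flag on all 4 arrays and 7 on some. The receptor genes on no array were Ccr4, Cxcr5, Ackr2, Ackr3 and Ackr4.

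Most measured ligands were lower in osteoclasts than in macrophages of the same genotype. In LysM-St18flox, 16 of 21 measured ligands were at least 2-fold lower and 1 was at least 2-fold higher, against 12.2% lower and 10.9% higher (23.2% changed) among all 15575 genes measured in that comparison. In the wild type 11 of 21 were lower and none higher, against 7.32% lower and 5.70% higher (13.0% changed) among 14734 genes. The same 11 were lower in both genotypes: Ccl2, Ccl3, Ccl4, Ccl6, Ccl7, Ccl8, Ccl12, Ccl24, Cxcl2, Cxcl14 and Pf4. After normexp background correction the wild-type differences of Ccl24 (-0.94), Ccl3 (-0.93) and Ccl8 (-0.62) were under 2-fold. The median difference of ligands measured on both arrays was -2.10 in LysM-St18flox (20 genes) and -1.09 in the wild type (19 genes), beside -0.01 and 0.01 over all named genes. These counts cover genes that passed the filter on dim spots and not all 37 ligands.

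**Figure D1:**
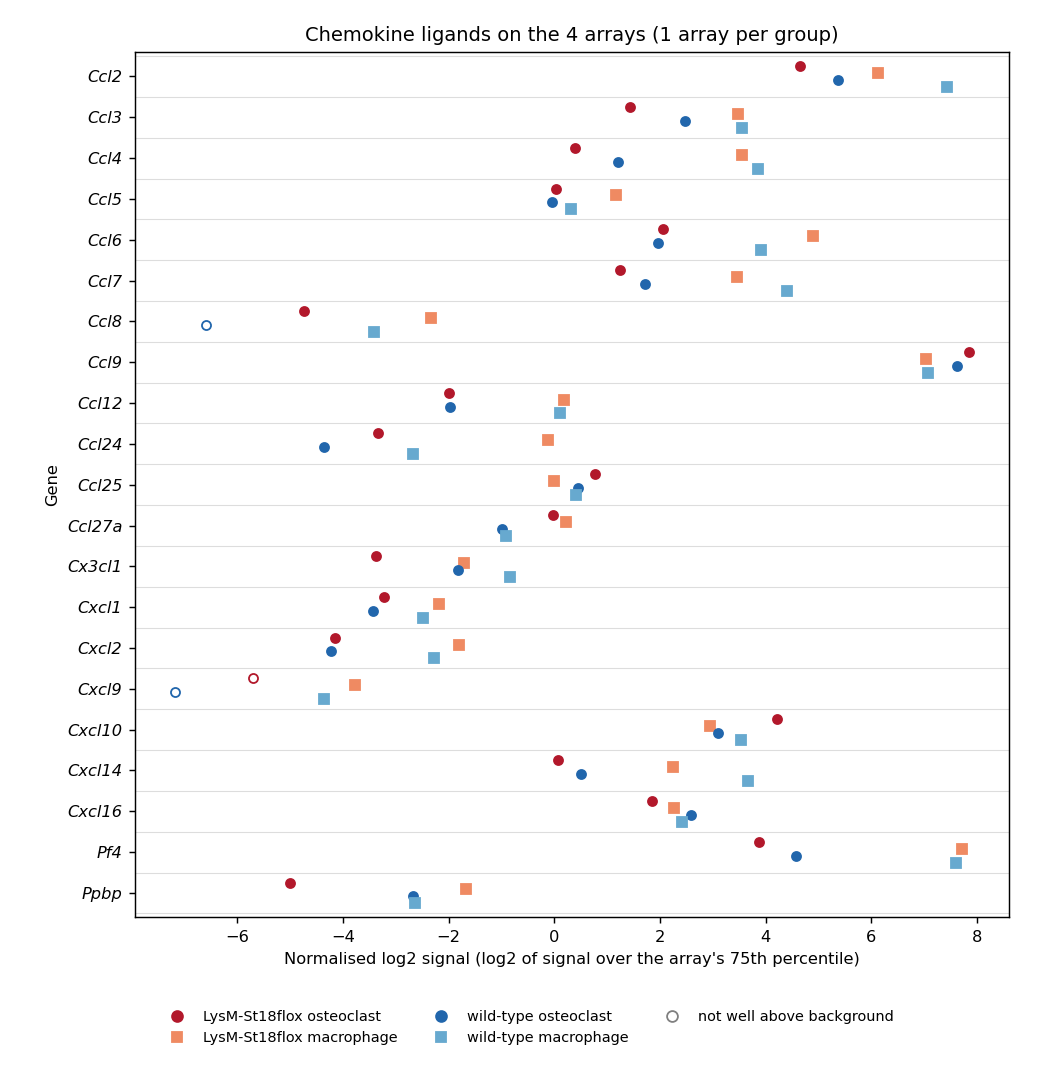
Normalised log2 signal (x axis) of the 21 measured ligand genes (y axis), 1 point per array. Filled points are well above background and open points are not; levels of different genes are not comparable. For the 11 genes called lower in both genotypes, osteoclast points (circles) lie at least 2-fold left of their genotype's macrophage point (square). The same holds for Cxcl9, whose osteoclast points are open. Ccl9 has its osteoclast points slightly to the right.

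The CCR2 ligands, which call monocytes out of the blood, were lower in osteoclasts of both genotypes. Ccl2 had log2 signals of 4.65 in LysM-St18flox osteoclasts and 6.13 in LysM-St18flox macrophages, and of 5.37 in wild-type osteoclasts and 7.43 in wild-type macrophages. Relative to macrophages of its genotype, Ccl2 was 2.79-fold lower in LysM-St18flox and 4.17-fold lower in wild-type osteoclasts. Ccl7, its neighbour on chromosome 11, was at 1.25 in LysM-St18flox osteoclasts against 3.46 in LysM-St18flox macrophages, and at 1.72 in wild-type osteoclasts against 4.40 in wild-type macrophages. Ccl12, a mouse gene of the same group, was at -2.00 against 0.18 and at -1.98 against 0.11 in the same order. The osteoclast values of these 3 genes lay below both macrophage values on every array. Ccl8, whose product acts on CCR8 in the mouse, was at -4.75 in LysM-St18flox osteoclasts and -2.34 in LysM-St18flox macrophages. In wild-type osteoclasts it was not well above background, so it was at least 2.79-fold lower there than in wild-type macrophages, where it was at -3.41.

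Ccl3, Ccl4 and Ccl5 encode inflammatory ligands that draw monocytes and T cells, and the products of Ccl3 and Ccl5 act on CCR1. Ccl4 was at 0.40 in LysM-St18flox osteoclasts against 3.55 in LysM-St18flox macrophages, 8.93-fold lower, and at 1.20 in wild-type osteoclasts against 3.86 in wild-type macrophages, 6.34-fold lower. Its other probe gave differences of -3.10 in LysM-St18flox and -2.48 for the wild type. Ccl3 stood at 1.43 in LysM-St18flox osteoclasts against 3.47 in LysM-St18flox macrophages, and at 2.46 in wild-type osteoclasts against 3.55 in wild-type macrophages, differences of -2.05 and -1.09. For Ccl3 and Ccl4 both osteoclast values were below both macrophage values. Ccl5 was at 0.02 in LysM-St18flox osteoclasts against 1.17 in LysM-St18flox macrophages, and at -0.05 in wild-type osteoclasts against 0.32 in wild-type macrophages. Only the LysM-St18flox difference, -1.14, passed 2-fold, and it was -0.97 after centring arrays on their medians.

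The paralogs Ccl6 and Ccl9, rodent ligands of CCR1, went different ways. Ccl6 was at 2.06 in LysM-St18flox osteoclasts and 4.89 in LysM-St18flox macrophages, 7.12-fold lower, and at 1.96 in wild-type osteoclasts and 3.92 in wild-type macrophages, 3.88-fold lower. Ccl9 was at 7.85 in LysM-St18flox osteoclasts and 7.04 in LysM-St18flox macrophages, and at 7.63 in wild-type osteoclasts and 7.07 in wild-type macrophages. Its differences of 0.81 and 0.56 did not reach 2-fold, and Ccl9 was higher in osteoclasts in both genotypes. The SD between spots holds within arrays and cannot show whether such differences exceed the spread between cultures.

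Ccl24, a ligand of CCR3 that is made by alternatively activated macrophages, was at -3.34 in LysM-St18flox osteoclasts against -0.11 in LysM-St18flox macrophages, and at -4.37 in wild-type osteoclasts against -2.68 in wild-type macrophages. The LysM-St18flox macrophage array was the highest and the wild-type osteoclast array the lowest. The CC ligands of epithelia stayed within 2-fold between the cell types. Ccl25, which draws T cells to the gut through CCR9, had differences of 0.79 in LysM-St18flox and 0.04 for the wild type. Other Ccl25 probes gave 0.96 and -0.02, and -0.18 and 0.28, in the same order. Ccl27a, a skin chemokine, had differences of -0.25 and -0.06. Ccl27a and Ccl21a have near-identical copies in the mouse genome, so their signals may include them.

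Among CXC ligands, Cxcl1 and Cxcl2 attract neutrophils through CXCR2. Cxcl2 was at -4.15 in LysM-St18flox osteoclasts and -1.81 in LysM-St18flox macrophages, and at -4.23 in wild-type osteoclasts and -2.27 in wild-type macrophages, 5.06-fold and 3.88-fold lower. Cxcl1 was at -3.22 in LysM-St18flox osteoclasts and -2.19 in LysM-St18flox macrophages, and at -3.43 in wild-type osteoclasts and -2.50 in wild-type macrophages. Its differences of -1.04 and -0.94 lay on either side of the 2-fold limit and lie close together; the first was under 2-fold in 4 of the alternative settings. On the same arrays 5 of 8 neutrophil markers were at least 2-fold lower in LysM-St18flox osteoclasts and 1 of 8 in wild-type osteoclasts, and their part in these differences was not tested.

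Pf4, the platelet factor that macrophages also make, had the largest decrease in LysM-St18flox among ligands well above background on both arrays. It was at 3.87 in LysM-St18flox osteoclasts and 7.71 in LysM-St18flox macrophages, 14.3-fold lower, and at 4.58 in wild-type osteoclasts and 7.60 in wild-type macrophages, 8.08-fold lower. Ppbp, the other platelet chemokine, was at -5.00 in LysM-St18flox osteoclasts against -1.67 in LysM-St18flox macrophages, and at -2.67 in wild-type osteoclasts against -2.64 in wild-type macrophages. It was therefore 10.1-fold lower in LysM-St18flox, with an osteoclast signal close to the dimmest flagged signal of that array (-5.50), and level in the wild type.

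Cxcl9 and Cxcl10 are interferon-induced ligands of CXCR3. Cxcl10 was at 4.22 in LysM-St18flox osteoclasts and 2.94 in LysM-St18flox macrophages, and at 3.10 in wild-type osteoclasts and 3.54 in wild-type macrophages. It was the single ligand at least 2-fold higher in osteoclasts, by 1.28 in LysM-St18flox, against -0.44 in the wild type. Cxcl9 was at -3.78 in LysM-St18flox macrophages and -4.37 in wild-type macrophages and not well above background in osteoclasts of either genotype. Its bound was at least 3.30-fold lower in LysM-St18flox osteoclasts and at least 1.44-fold lower in wild-type osteoclasts. After normexp the LysM-St18flox difference was -0.68, under 2-fold.

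Cxcl14, a chemokine of epithelia and macrophages, was at 0.07 in LysM-St18flox osteoclasts and 2.24 in LysM-St18flox macrophages, and at 0.51 in wild-type osteoclasts and 3.66 in wild-type macrophages. It was 4.47-fold lower in LysM-St18flox and 8.87-fold lower in the wild type, where it had the largest decrease among ligands well above background on both arrays. Taking the median over all its probes, dim ones included, made the LysM-St18flox difference -0.39. Cxcl16, a membrane-bound ligand of CXCR6, was within 2-fold in both, at -0.42 and 0.16. Cx3cl1, the membrane-bound ligand of CX3CR1, was at -3.37 in LysM-St18flox osteoclasts against -1.70 in LysM-St18flox macrophages, and at -1.83 in wild-type osteoclasts against -0.84 in wild-type macrophages. Its differences were -1.67 and -0.99, the second just short of 2-fold.

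Measured receptors went both ways. In LysM-St18flox, 2 of 18 were at least 2-fold higher and 6 lower in osteoclasts, against 10.9% and 12.2% of all genes. The higher count there was near the share of all genes. In the wild type 3 of 16 were higher and 5 lower, against 5.70% and 7.32% of all genes. Ccr1 and Ccr3 were higher in both genotypes, and those lower in both included Ccr2, Cx3cr1 and Ccrl2. After normexp the wild-type difference of Ccr3 was 0.92, under 2-fold, and that of Ccr1 stayed above it. The median difference of receptors measured on both arrays was -0.13 in LysM-St18flox (14 genes) and 0.09 in the wild type (12 genes).

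**Figure D2:**
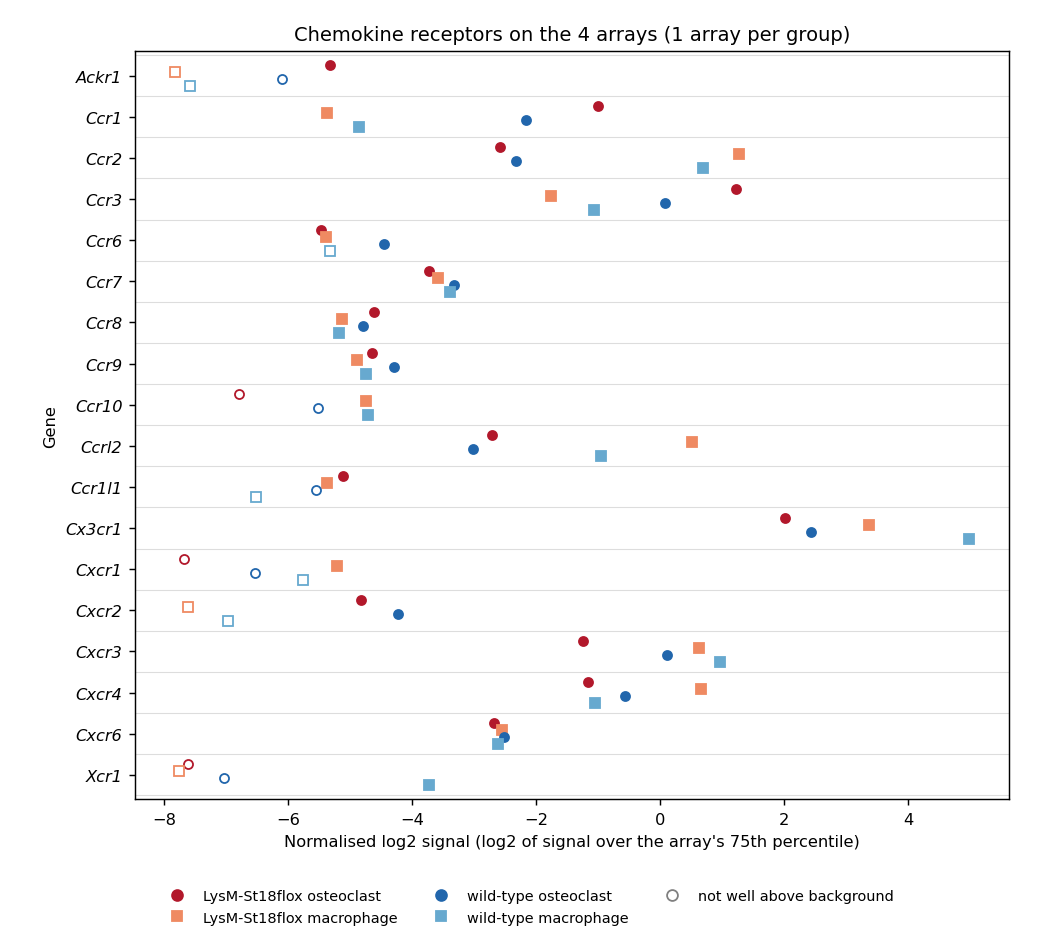
Normalised log2 signal (x axis) of 18 measured receptor genes (y axis), 1 point per array, with open points for spots not well above background. Ccr1 and Ccr3 have both osteoclast points (circles) right of both macrophage points (squares), and Ccr2, Ccrl2 and Cx3cr1 have them to the left.

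Ccr1, the receptor for Ccl3, Ccl5, Ccl6 and Ccl9 products, had the largest increase among members well above background on both arrays. It was at -0.99 in LysM-St18flox osteoclasts and -5.37 in LysM-St18flox macrophages, 20.7-fold higher, and at -2.16 in wild-type osteoclasts and -4.86 in wild-type macrophages, 6.49-fold higher. The macrophage signals lay near the dimmest flagged signals of those arrays (-5.56 in LysM-St18flox and -5.32 for the wild type), so the folds are uncertain in size. Ccr3, the eotaxin receptor that marks eosinophils, was at 1.23 in LysM-St18flox osteoclasts and -1.77 in LysM-St18flox macrophages, and at 0.07 in wild-type osteoclasts and -1.07 in wild-type macrophages, 7.98-fold and 2.21-fold higher. Both genes had their highest value in LysM-St18flox osteoclasts and their lowest in LysM-St18flox macrophages.

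Receptors of inflammatory monocytes were lower. Ccr2 was at -2.58 in LysM-St18flox osteoclasts and 1.27 in LysM-St18flox macrophages, and at -2.32 in wild-type osteoclasts and 0.69 in wild-type macrophages, 14.4-fold and 8.06-fold lower. Cx3cr1, which marks patrolling monocytes and resident macrophages, was at 2.02 in LysM-St18flox osteoclasts and 3.37 in LysM-St18flox macrophages, and at 2.43 in wild-type osteoclasts and 4.98 in wild-type macrophages. Its differences were -1.35 and -2.56, and its other probe gave -1.62 and -2.83. Ccrl2, an atypical receptor that presents chemerin, was at -2.72 in LysM-St18flox osteoclasts and 0.51 in LysM-St18flox macrophages, and at -3.01 in wild-type osteoclasts and -0.95 in wild-type macrophages, 9.37-fold and 4.17-fold lower. In all 3 of these receptors both osteoclast values lay below both macrophage values.

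Cxcr3, the receptor for the products of Cxcl9 and Cxcl10, was at -1.25 in LysM-St18flox osteoclasts and 0.63 in LysM-St18flox macrophages, and at 0.12 in wild-type osteoclasts and 0.97 in wild-type macrophages. It passed 2-fold in LysM-St18flox (-1.88) and not in the wild type (-0.86), though the wild-type difference was -1.01 after normexp, just past 2-fold. Cxcr4, the receptor for Cxcl12 that retains cells in marrow, was at -1.17 in LysM-St18flox osteoclasts and 0.66 in LysM-St18flox macrophages, and at -0.56 in wild-type osteoclasts and -1.05 in wild-type macrophages. The LysM-St18flox macrophage array stood above the others, which lay close together. The differences were -1.82 in LysM-St18flox and 0.49 for the wild type, and a second probe gave -1.92 and 0.41.

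Cxcr2, the neutrophil receptor for Cxcl1 and Cxcl2 products, was well above background in osteoclasts alone, at -4.83 in LysM-St18flox and -4.23 for the wild type. It was at least 1.67-fold higher in osteoclasts than in macrophages in LysM-St18flox and at least 2.13-fold in the wild type (0.35 on the log2 scale after normexp, under 2-fold). None of the 8 neutrophil markers was at least 2-fold higher in osteoclasts, and the source of the dim Cxcr2 signal was not tested. Xcr1, a receptor of cross-presenting dendritic cells, was well above background in wild-type macrophages alone, at -3.73, and so at least 2.24-fold lower in wild-type osteoclasts (-0.60 after normexp, under 2-fold). The remaining measured receptors stayed within 2-fold between the cell types, with differences on both arrays from -0.15 to 0.50. These were Ccr7, which guides cells to lymph nodes, Ccr8, Ccr9 and Cxcr6, and Ccr6 and Ccr1l1 in LysM-St18flox. Ackr1, Ccr10 and Cxcr1 had bounds or values under 2-fold.

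**Figure D3:**
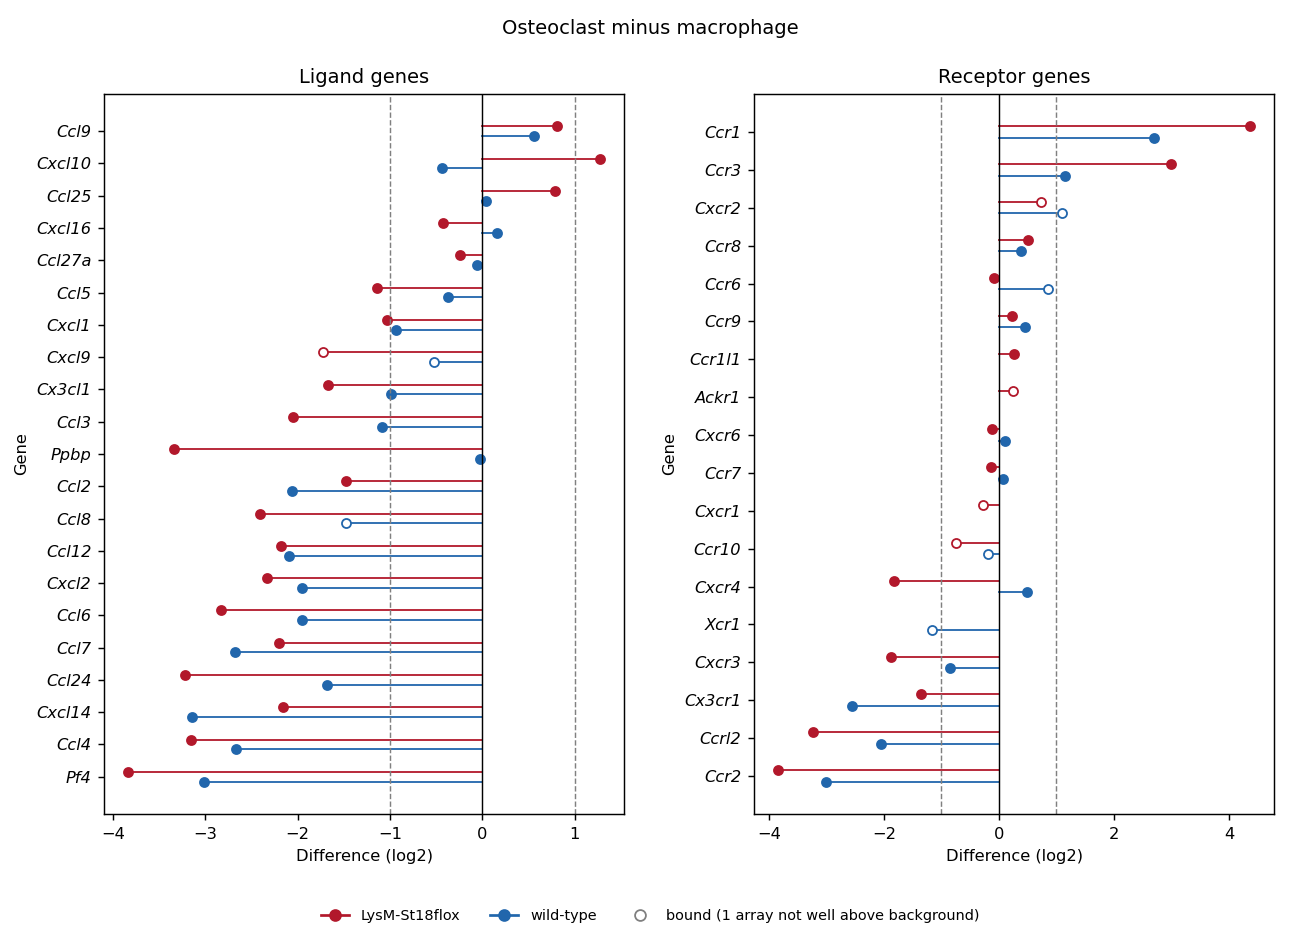
Osteoclast minus macrophage difference (x axis, log2) of each measured ligand gene (left) and receptor gene (right) in LysM-St18flox and wild-type cells, ordered by the mean of both; open points are bounds and dashed lines mark 2-fold. Most ligand lines point left, with Pf4 at -3.84 and -3.01, whereas receptor lines point both ways, with Ccr1 at 4.37 and 2.70 and Ccr2 at -3.85 and -3.01.

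Genes that lie next to or near each other differed in direction. On chromosome 9, Ccr1, Ccr1l1, Ccr3 and Ccr2 follow one another with no other gene between them in the RefSeq order. Ccr1 and Ccr3 were higher in osteoclasts of both genotypes, Ccr2 lower, and Ccr1l1 was at 0.26 in LysM-St18flox and not measured in the wild type. In one chromosome 11 block, Ccl9 (0.81 and 0.56, both under 2-fold) lay between Ccl5 (-1.14 and -0.37) and Ccl6 (-2.83 and -1.96). Ccl9 is not directly beside either of them. In the other chromosome 11 block, all measured genes (Ccl2, Ccl7, Ccl12 and Ccl8) were at least 2-fold lower in both genotypes.

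**Figure D4:**
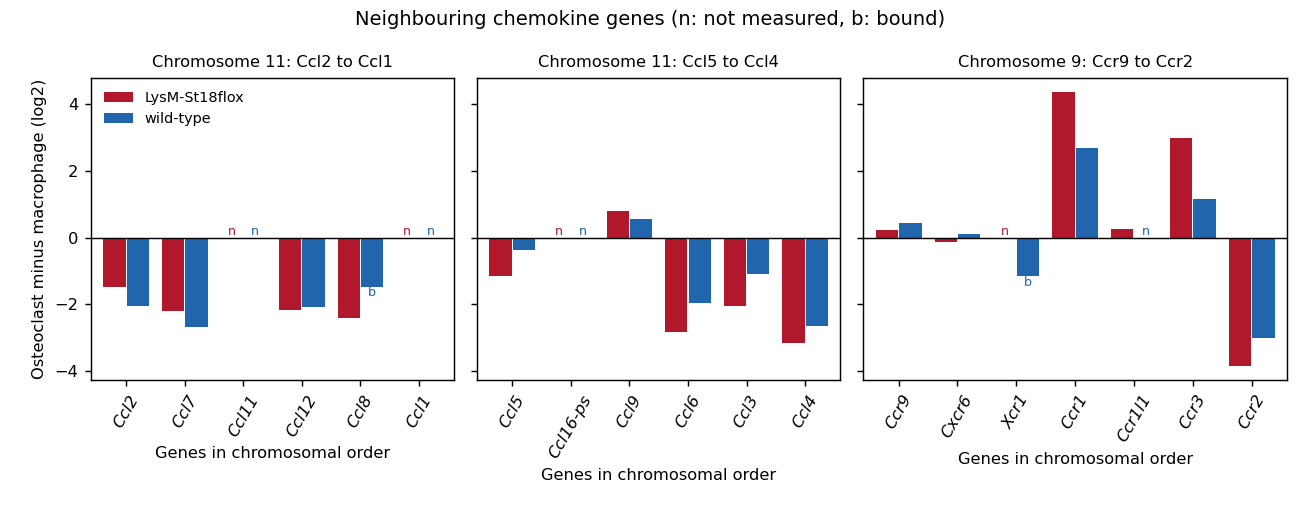
Osteoclast minus macrophage difference (y axis, log2) of members in 3 gene blocks, in chromosomal order and without distances, for LysM-St18flox and wild-type cells. Ccr1 and Ccr3 stand above 0 beside Ccr2 below it, and Ccl9 stands above 0 in a block whose other measured members are below; n marks genes not measured and b a bound.

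LysM-St18flox macrophages differed from wild-type macrophages in 5 of 21 measured ligands, 3 higher and 2 lower, and in 5 of 15 measured receptors, 3 higher and 2 lower. Among all 15161 genes measured in that comparison, 3.30% were higher and 2.98% lower (6.28% changed). The median difference was 0.07 over ligands and -0.04 over receptors, beside -0.03 over all named genes. In osteoclasts 5 of 20 ligands (2 higher, 3 lower) and 5 of 14 receptors (3 higher, 2 lower) passed 2-fold, against 3.80% higher and 3.94% lower (7.75% changed) among 14614 genes. Each of these genotype comparisons shares an array with the cell type comparisons above, so the values come from the same signals.

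Ccl24 was the single ligand at least 2-fold higher in LysM-St18flox in both cell types. For Ccl24 the macrophage value was -0.11 in LysM-St18flox against -2.68 in the wild type, 5.94-fold higher, and the osteoclast value -3.34 against -4.37, 2.04-fold higher. The osteoclast difference of 1.03 was 0.31 after normexp background correction. Ccl27a had differences of 1.15 in macrophages and 0.97 in osteoclasts, while of its other probes 1 also passed 2-fold in macrophages and 1 gave 0.14 there, and they gave 0.91 and 0.95 in osteoclasts.

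In macrophages the higher genes also included Cxcr4 (3.26-fold), Ccrl2 (2.76-fold) and Ccl8 (2.10-fold). Cx3cr1 was 3.07-fold lower in LysM-St18flox macrophages, with -0.99 from its other probe, Cxcl14 2.68-fold lower and Ccl2 2.47-fold lower. Xcr1 was at least 3.57-fold lower, since it was not well above background in LysM-St18flox macrophages. After normexp Ccl8 (0.64), Ccl27a (0.94) and Xcr1 (-0.98) were under 2-fold. Ccl6 (0.97) and Ppbp (0.97) were just under 2-fold higher and Ccl7 (-0.95) just under 2-fold lower. Of the cell type markers listed, Mertk of macrophages (1.66) was at least 2-fold higher between these arrays, and Dcstamp (-1.81) and Ocstamp (-1.01) of osteoclasts and Ms4a1 (-1.08) of B cells were lower. Their part in these differences was not tested.

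In osteoclasts Cxcl10 was 2.17-fold, Ccr1 2.25-fold and Ccr3 2.23-fold higher in the LysM-St18flox culture than in the wild-type one. Ppbp was 5.04-fold lower, Cx3cl1 2.91-fold, Cxcr3 2.58-fold, Ccl3 2.05-fold and Ccr6, a receptor for the Ccl20 product, 2.02-fold. Ccr6 at -5.47 was close to the dimmest flagged signal in LysM-St18flox osteoclasts, and Ccl3 and Ccr6 were under 2-fold after centring arrays on their medians, which moves all differences of this comparison by 0.25. After normexp Ccr1 (0.87), Ccl3 (-0.99) and Ccr6 (-0.53) were under 2-fold. Of the 7 osteoclast markers 5 were at least 2-fold higher in LysM-St18flox osteoclasts, among them Calcr, the calcitonin receptor gene (2.10), and Oscar, an immunoreceptor gene (2.30). Their part in the chemokine differences was not tested.

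**Figure D5:**
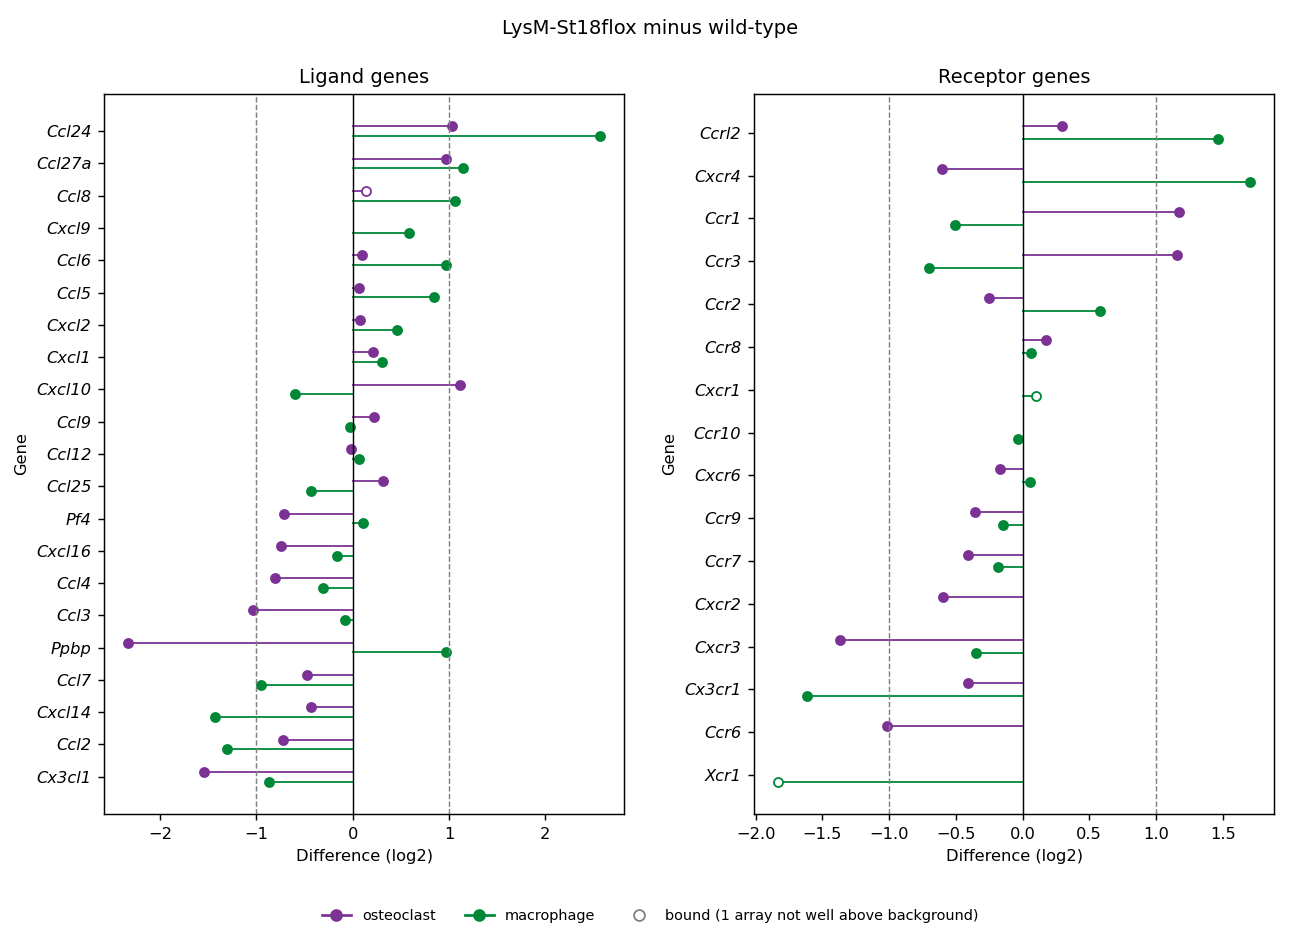
LysM-St18flox minus wild-type difference (x axis, log2) of each measured ligand gene (left) and receptor gene (right) in osteoclasts and macrophages; open points are bounds and dashed lines mark 2-fold. Ccl24 lies right of 1 in both cell types, and Cxcr4 lies at 1.71 in macrophages and -0.60 in osteoclasts.

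The osteoclast minus macrophage differences themselves were at least 2-fold apart between LysM-St18flox and the wild type for 3 of 19 ligands and 6 of 12 receptors measured on all arrays, against 7.90% of 13671 genes (3.20% higher and 4.70% lower in LysM-St18flox). The difference was higher in LysM-St18flox for Ccr3 (by 1.86), Cxcl10 (1.72), Ccr1 (1.67) and Cx3cr1 (1.21). It was lower for Ppbp (-3.30), Cxcr4 (-2.31), Ccl24 (-1.54), Ccrl2 (-1.17) and Cxcr3 (-1.02). The second probes of Cxcr4 and Cx3cr1 gave -2.33 and 1.21. Ccrl2 and Cxcr3 were under 2-fold with 2 and 4 of the alternative settings.

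Genes that act beside the receptors were taken from 5 lists, to be read against the shares of all genes: 10.9% higher and 12.2% lower in LysM-St18flox, and 5.70% and 7.32% in the wild type. Of 11 genes for G proteins and PI3K gamma, 1 was higher and 3 lower in LysM-St18flox osteoclasts than in their macrophages, and none higher and 2 lower in the wild type. Gng2, a G protein gamma subunit gene, was at -3.01 and -1.67, and Pik3cg, the kinase gene activated by chemokine receptors, at -1.80 and -1.13. Gnai2, the main inhibitory G protein of leukocytes, was within 2-fold at -0.27 and -0.31. Of 13 genes that switch receptors off, 2 were higher and 4 lower in each genotype. Grk3, a receptor kinase gene, was at 4.24 in LysM-St18flox and 3.38 for the wild type, while Arrb2, an arrestin gene, was at -1.96 and -1.16 and Rgs1 at -1.34 and -1.21.

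Motility genes did not exceed the share of all genes: of 12, Rac2 alone was higher (1.35) and Dock2 alone lower (-1.39) in LysM-St18flox, while in the wild type these stood at 0.47 and -0.73 and no motility gene reached 2-fold. Receptors for other attractants were lower in 5 of 9 cases in LysM-St18flox and in 4 of 9 in the wild type, against 12.2% and 7.32% of all genes, and higher in none. C3ar1 and C5ar1, the receptors for complement fragments, were at -2.45 and -1.79 and at -1.67 and -1.48, and Fpr2, a formyl peptide receptor gene, at -2.27 and -2.09. Among 6 proteases that cut chemokines, 5 were measured, and 2 were higher and none lower in each genotype. Mmp14 was at 5.76 and 4.38, and Mmp9 at 11.85 in LysM-St18flox and at least 10.18 in the wild type. Adam10, Adam17 and Mmp12 stayed within 2-fold in both genotypes, and Dpp4 was not well above background on any array. Between genotypes, 1 of 50 measured genes of these lists was at least 2-fold lower in macrophages (Rgs16, -2.25), against 2.98% of all genes, and 4 of 50 were higher in osteoclasts (Rac2, Fpr1, Mmp9 and Mmp14), against 3.80%.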

How the data were processed

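Per the labels, RNA was labelled as cRNA for one-colour arrays, and per the submitters' processing notes the arrays were read with Agilent Feature Extraction 11.0.1.1. The deposited scanner files give intensity per spot: a processed signal, background-subtracted and detrended within the array, and median spot and background signals, plus flags of other kinds (0 or 1), per the file headers. The authors also deposited log2 values for 30909 probes, which hold 31 members; no source used here says how they were made, and their sorted columns differ by at most 0.000652.

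Spots called uneven or outlying (80 to 126 per array) were left out, spots of a probe averaged as log2, and the array's 75th percentile subtracted. Probes were named through RefSeq accessions and a GRCm38.p6 gene table (58.3% named), and each gene takes its brightest probe. Chromosome names and gene order come from that table; the scanner headers name another build. The calling code was run on simulated data, with changes placed only in probes well above background and above -3. The simulation held no bounds and no spread between cultures, so it checks the code and not the calls of members. Python 3.11.15, pandas 2.3.3, R 4.3.3 and limma 3.58.1 (normexp) were used. No test across arrays was run, since each comparison sets 1 array against 1; their number limits precision. Of the receptors, 1 is counted but not reported by name here, and it is left out of the figures. Signals on all arrays are given for the others past 2-fold in at least 1 of 4 comparisons. Members and lists were chosen with earlier results of these data known. Alternatives were other scaling, background correction, probe choice, filters, fold limit and the authors' values.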

Additional observations from a re-analysis of the deposited data

Results flagged for a closer look

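Ccr1, Ccr3, Cxcl10, Cxcr4 and Ppbp differed in direction between the genotypes or the cell types while their responses were at least 2-fold apart. With 1 array per group these differences between groups were not tested. The LysM-St18flox minus wild-type difference in macrophages and in osteoclasts was -0.50 and 1.17 for Ccr1, -0.70 and 1.16 for Ccr3, -0.60 and 1.12 for Cxcl10, 1.71 and -0.60 for Cxcr4, and 0.97 and -2.33 for Ppbp. The osteoclast minus macrophage difference also turned between LysM-St18flox and the wild type for Cxcl10 (1.28 and -0.44) and Cxcr4 (-1.82 and 0.49). Ccr1 in macrophages and Ppbp in LysM-St18flox osteoclasts were close to the dimmest signals that carried the flag.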

How the results depend on the processing

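Of 1378 values of single members under 8 alternative settings, none that was at least 2-fold turned its direction, and 1323 kept their side of the 2-fold limit. Many of these values could not change. The 2 filter settings repeat the main value of members flagged on both arrays, and the 2 probe medians that of single-probe genes. Calls changed for 19 of 176 values with normexp and 10 of 177 with median centring. They changed for 9 of 177 with quantile normalization and 10 of 155 with the authors' values. The counts of changed ligands in osteoclasts against macrophages stayed within 1.5 times under all settings in both genotypes. With no filter on dim probes, changed receptors numbered 13 in LysM-St18flox osteoclasts against macrophages, and between genotypes in osteoclasts there were 10 changed ligands and 10 changed receptors. With normexp, chosen on the median signal after seeing the files because they hold no mean signal, changed ligands numbered 3 between genotypes in macrophages and 3 in osteoclasts, and changed receptors 3 in osteoclasts. At 1.5-fold, 12 ligands in macrophages and 10 in osteoclasts differed between genotypes. Ligands whose response differed between genotypes numbered 7 with quantile normalization, 7 with the authors' deposited values, 7 without the filter, 5 with normexp and 10 at 1.5-fold, and receptors 13 without the filter. The cause of these changes was not tested, except that more or fewer dim genes enter by construction of the filter. Centring on the median moved all differences by 0.17 in LysM-St18flox osteoclasts against macrophages and by 0.25 between genotypes in osteoclasts. No paired analysis was possible because each result compares 1 array with 1 array and comes from no test; an additive fit over all 4 arrays was not run, and normexp on the mean signal was not run.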
